A study of Mus musculus with 15 samples.

Results

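The genes of the major histocompatibility complex (MHC) class II pathway were followed through 15 mouse brain RNA-seq libraries. The 7 genes were chosen by name: H2-Aa, H2-Ab1, H2-Eb1, Cd74, H2-DMa, H2-DMb1 and Ciita. All 7 had a row in the deposited expression table, which held 65964 entries. The libraries came from C57BL/6 brain and formed 5 groups of 3. APOE_H and APOE_L were treated with kainic acid (KA) and APOE, KA_H and KA_L were treated with KA alone, and CTRL_L was untreated. Every library, those of CTRL_L included, carries the label of a KA-induced temporal lobe epilepsy (TLE) model. KA activates kainate receptors, a class of glutamate receptor, and induces seizures in rodents. The labels used here leave the letters L and H and the nature of the APOE treatment undefined, and they give no age, sex or link between libraries and animals. An untreated H group is not among the libraries analysed here. By its title the series concerns astrocytes that accumulate lipid in epilepsy.

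MHC class II molecules present peptides from the endosomal compartment to CD4 T cells. An alpha chain and a beta chain (H2-Aa with H2-Ab1 in the I-A molecule; H2-Eb1 is the beta chain of I-E) are assembled on the invariant chain, encoded by Cd74, which fills the peptide groove until lysosomal proteases degrade it. The H2-DM heterodimer (H2-DMa with H2-DMb1) then exchanges the last invariant chain fragment for peptide, and Ciita encodes the transactivator that drives the transcription of these genes. In healthy brain, class II is found mainly on macrophages of the borders and on dendritic cells, and microglia carry little of it until they are activated.

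Expression was given as TPM (transcript abundance scaled to a fixed library total), a unit that accounts for transcript length, so levels of different genes can be set side by side. TPM keep no sequencing depth, and the precision of a single value is unknown. Microglia markers were abundant, with all 10 at 1 TPM or more in each library, whereas the summed level of 6 astrocyte markers stayed at or under 226 TPM, that of 6 neuron markers at or under 66.5 TPM and that of 6 oligodendrocyte markers at or under 154 TPM, against the label of brain tissue. Apoe, which bears on the APOE label, ranged over 6.49 to 144 TPM in APOE_H, 0 to 0.71 TPM in APOE_L, 8767 to 16636 TPM in KA_H, 1970 to 3262 TPM in KA_L and 161 to 889 TPM in CTRL_L. In bulk libraries fewer cells of a type and less RNA per cell cannot be told apart. In APOE_H, 12801 to 15452 entries reached 1 TPM, and in KA_H 13192 to 13635. The L libraries had 10161 to 11237 in APOE_L, 9931 to 12085 in KA_L and 10706 to 11182 in CTRL_L. The share of TPM in assembled loci without a gene identifier was 2.20 to 3.17% in APOE_H, 10.6 to 11.3% in APOE_L, 4.51 to 6.78% in KA_H, 11.4 to 12.1% in KA_L and 6.73 to 8.94% in CTRL_L. With these loci left out of the fit, the count of class II genes called was as in the main analysis in each comparison. The part of the other differences between libraries in the results below was not tested.

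The alpha chain gene H2-Aa was high in all APOE_H libraries and near 0 in all KA_L libraries. It stood at 1009, 969 and 1185 TPM in APOE_H replicates 1 to 3, at 24.8, 52.0 and 287 TPM in APOE_L, at 689.7, 155 and 799 TPM in KA_H, at 0.1, 0.09 and 0.13 TPM in KA_L, and at 123, 32.4 and 629 TPM in CTRL_L. Ordered by the median, the groups ran APOE_H, KA_H, CTRL_L, APOE_L, KA_L. APOE_H did not overlap KA_H, and APOE_L did not overlap KA_L. KA_H and CTRL_L overlapped, as did CTRL_L and APOE_L.

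H2-Ab1 encodes the beta chain that pairs with H2-Aa. It reached 1998, 1055 and 1502 TPM in APOE_H and 29.7, 48.6 and 36.7 TPM in APOE_L, with 460.2, 61.6 and 227 TPM in KA_H, 40.6, 0 and 21.8 TPM in KA_L and 36.0, 0 and 418 TPM in CTRL_L. In KA_L replicate 2 and CTRL_L replicate 2 it was listed at 0, and a listed 0 may be an estimate that failed. APOE_H lay above KA_H, and KA_H above APOE_L, without overlap, while APOE_L, CTRL_L and KA_L overlapped in turn. Unlike H2-Aa, H2-Ab1 was measured at over 20 TPM in KA_L replicates 1 and 3.

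H2-Eb1 encodes the beta chain of I-E, whose alpha chain is that of H2-Ea. Mice of the H2-b haplotype, such as C57BL/6, make no I-E because the alpha chain gene H2-Ea is defective, and the annotation lists it as the pseudogene H2-Ea-ps, which was at 0 in all 15 libraries. H2-Eb1 stood at 555, 336 and 578 TPM in APOE_H, 0.03, 3.96 and 62.4 TPM in APOE_L, 133, 20.0 and 66.1 TPM in KA_H and 0.19, 0 and 509.5 TPM in CTRL_L. It was listed at 0 in the 3 KA_L libraries. APOE_H lay above every library of KA_H and APOE_L, but CTRL_L replicate 3 reached the range of APOE_H.

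Cd74 was the most abundant of the 7 genes in each APOE_H library. Its level was 3659, 2955 and 4471 TPM in APOE_H, 115, 89.2 and 398 TPM in APOE_L, 1551, 187 and 951 TPM in KA_H, 58.4, 18.6 and 37.5 TPM in KA_L, and 137, 52.8 and 981 TPM in CTRL_L. APOE_H did not overlap any other group. KA_L lay below APOE_L and KA_H without overlap and overlapped CTRL_L in 1 library, its replicate 1 lying above CTRL_L replicate 2.

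H2-DMa varied least of the 6 tested genes, with an SE of 0.67 per log2 difference against 0.93 to 1.90 for the others. It stood at 237, 321 and 313 TPM in APOE_H, 319.6, 130.2 and 81.1 TPM in APOE_L, 323, 91.2 and 177 TPM in KA_H, 105, 99.7 and 31.9 TPM in KA_L and 216, 117 and 167 TPM in CTRL_L. Every neighbouring pair of groups in the order of its medians overlapped. H2-DMb1 was at 212, 289.7 and 176 TPM in APOE_H, 45.5, 108 and 30.8 TPM in APOE_L, 85.0, 41.5 and 73.9 TPM in KA_H, 0, 65.9 and 17.8 TPM in KA_L and 111, 0 and 104 TPM in CTRL_L. For H2-DMb1 the APOE_H libraries lay above all others, and the other 4 groups overlapped.

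Ciita was listed at 0 in 13 of the 15 libraries. The exceptions were APOE_H replicates 1 and 3, at 0.17 and 0.97 TPM. No library reached 1 TPM, so Ciita did not pass the filter on low values (1 TPM or more in at least 3 libraries) and was not tested. No fold change is given. The other 6 genes passed, 17505 entries in all.

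**Figure D1:**
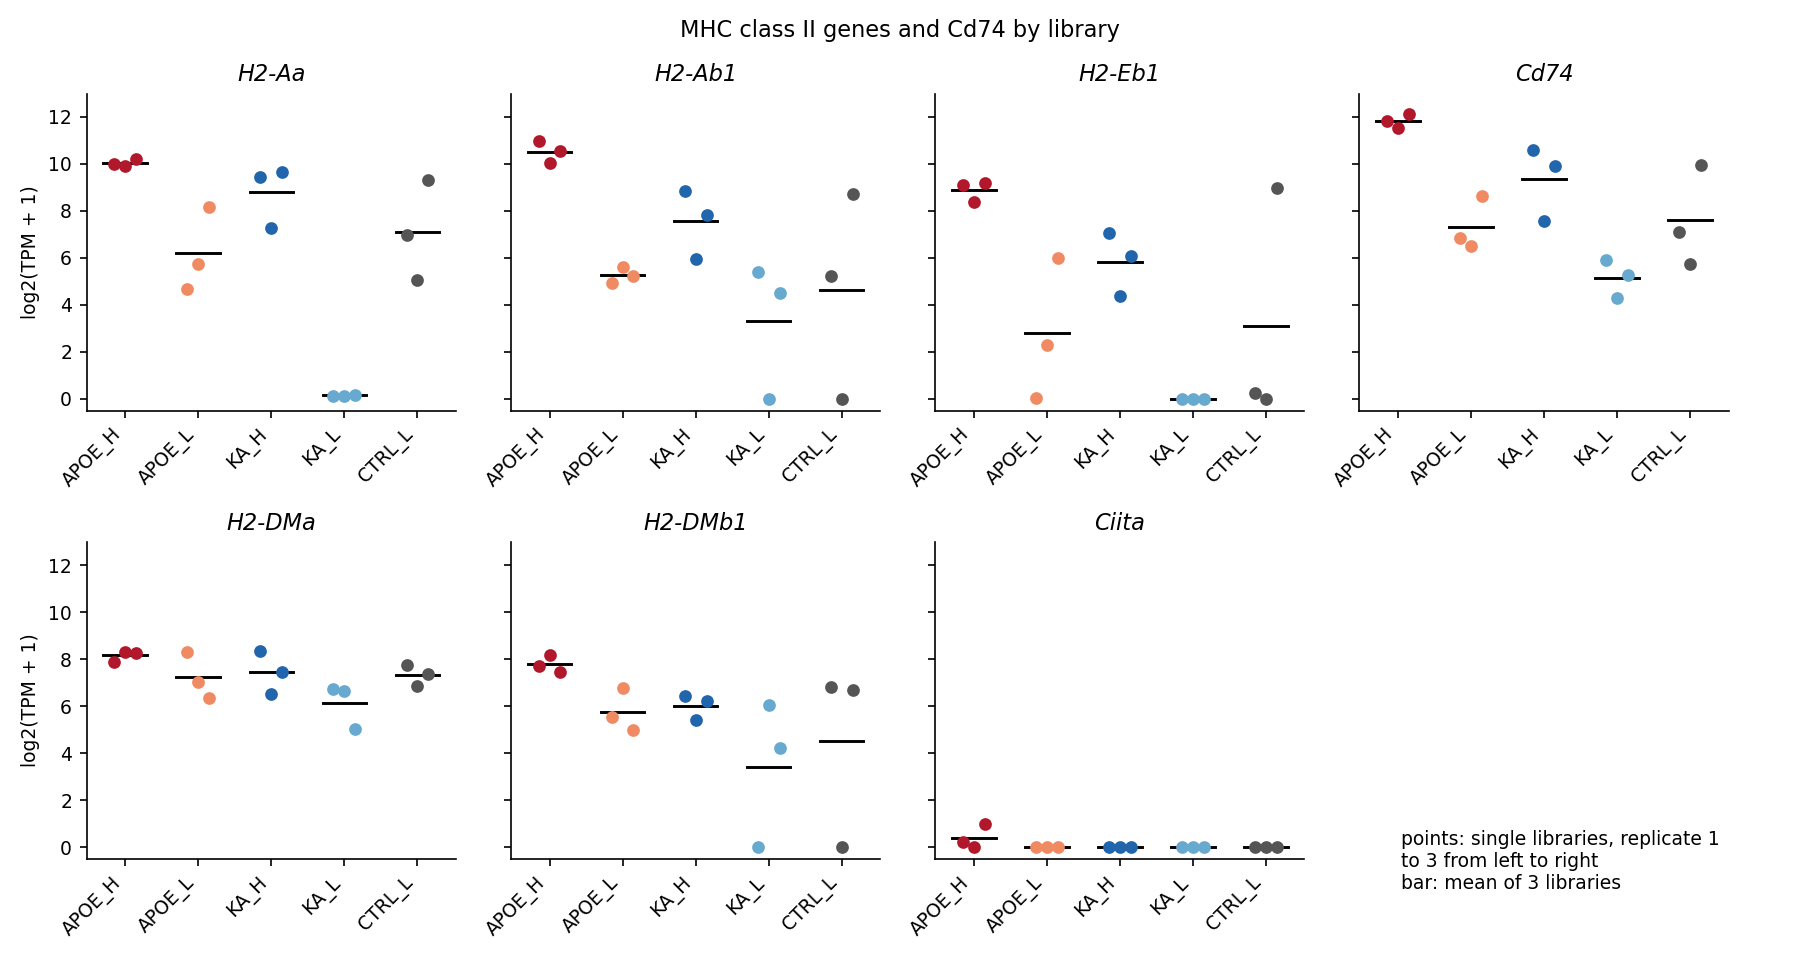
Level of the 7 class II genes in each of the 15 libraries, as log2(TPM + 1), by group; points are single libraries and the bar is the mean of 3. H2-Aa, H2-Ab1, H2-Eb1, Cd74, H2-DMa and H2-DMb1 have their highest mean in APOE_H. H2-Aa and H2-Eb1 lie at or near 0 in KA_L, and Ciita stays under 1 TPM throughout.

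Class II promoters share an X box and a Y box close to the transcription start, which the factors RFX and NF-Y bind, and the Ciita protein acts through them. The promoters of 3 genes are shown because their APOE_H libraries lay above every KA_H and APOE_L library. RefSeq promoter windows (GRCm38.p6; 250 bases before to 50 after the start) were matched for 4 of the 7 genes, H2-Aa, H2-Eb1, H2-DMa and H2-DMb1. Capitals mark the letters CCAAT, the core of the Y box, and ACNGATG, letters of the X box, on either strand. The windows are H2-Aa at chr17:34287774-34288073, minus strand, H2-Eb1 at chr17:34305617-34305916, plus strand and H2-DMb1 at chr17:34152941-34153240, plus strand.
H2-Aa: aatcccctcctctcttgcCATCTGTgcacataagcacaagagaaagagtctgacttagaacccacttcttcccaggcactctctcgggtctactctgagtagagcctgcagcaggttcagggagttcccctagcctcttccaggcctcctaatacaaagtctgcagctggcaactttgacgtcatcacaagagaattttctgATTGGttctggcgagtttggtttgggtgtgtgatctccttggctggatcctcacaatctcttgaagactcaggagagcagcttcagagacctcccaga
H2-Eb1: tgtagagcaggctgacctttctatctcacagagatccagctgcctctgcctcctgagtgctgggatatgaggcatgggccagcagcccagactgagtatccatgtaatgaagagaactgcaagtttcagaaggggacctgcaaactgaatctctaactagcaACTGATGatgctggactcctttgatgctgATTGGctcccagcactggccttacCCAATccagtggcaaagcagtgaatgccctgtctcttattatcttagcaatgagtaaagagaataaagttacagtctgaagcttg
H2-DMb1: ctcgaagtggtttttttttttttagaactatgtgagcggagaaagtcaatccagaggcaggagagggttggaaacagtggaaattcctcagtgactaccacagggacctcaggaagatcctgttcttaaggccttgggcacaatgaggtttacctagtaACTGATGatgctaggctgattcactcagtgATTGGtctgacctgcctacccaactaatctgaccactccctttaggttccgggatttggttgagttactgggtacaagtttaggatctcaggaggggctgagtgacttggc
In H2-Eb1 the X box letters began 88 bases and the reversed CCAAT letters 59 bases before the start, and in H2-DMb1 91 and 61 bases before it. H2-Eb1 held a further CCAAT 35 bases before the start. H2-Aa had the reversed CCAAT letters 48 bases before the start, and its only match to ACNGATG lay 232 bases before it. An X box spelled with other letters would not be marked, so this does not show that H2-Aa lacks a nearer X box. Of the windows of H2-DMa, the first held neither motif and the second held the CCAAT letters alone. Among all 32851 RefSeq windows, 37.4% held CCAAT, 9.85% held ACNGATG and 3.65% held both. No match overlapped another, and a match is a description of letters, not of a bound site.

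Within L, KA_L was set against the untreated CTRL_L. H2-Aa was lower in KA_L, at 0.107 ± 0.0208 TPM, against 262 ± 322 TPM in CTRL_L (mean ± SD, n = 3 each). The difference on the log2(TPM + 1) scale was -6.96 (SE 1.02; lower in 3 of 3 libraries). Its Benjamini-Hochberg adjusted p over all 17505 entries was 0.00552 in limma. Of the 6 class II genes tested, 1 was called lower and 0 higher, where 0.4% of all entries were called lower and 0.171% higher. The groups did not overlap, with KA_L lower, for H2-Aa and H2-DMa, 2 of 6 genes against 4.54% of all entries. Cd74 was 2.45 lower on the log2 scale in KA_L without passing (SE 0.93, adjusted p = 0.324, limma), and H2-Ab1, H2-DMa and H2-DMb1 had differences of -1.34, -1.21 and -1.08. The sign of H2-Ab1 turned without KA_L replicate 2 (0.30) or CTRL_L replicate 3 (0.69), and that of H2-DMb1 without KA_L replicate 1 (0.64), CTRL_L replicate 1 (0.073) or CTRL_L replicate 3 (0.03). The H2-Aa call held without each of the 6 libraries (adjusted p 0.00269 to 0.0197, limma), but not when these 6 libraries were fitted alone (adjusted p = 0.533, limma; 0.00105 to 0.533 over 16 alternatives). Its size depends on the pseudocount, with -9.37 at 0.1 and -4.83 at 5. The KA_L values of H2-Aa, at 0.09 to 0.13 TPM, may also be estimates that failed, as Cd74 was at 18.6 to 58.4 TPM in these libraries. Markers of other cell types were also lower in KA_L, with astrocyte sums of 0.03 to 3.07 TPM in KA_L and 105.5 to 226 TPM in CTRL_L and oligodendrocyte sums of at most 70.7 TPM in KA_L and of 103 to 154 TPM in CTRL_L. None of these markers was called by limma, 2 of 2 astrocyte and 1 of 4 oligodendrocyte markers tested having an unadjusted p under 0.05. Of the 10 choroid plexus and 10 microglia markers 0 had a positive log2 fold change, with medians of -4.22 and -0.48 against 0 over all entries. None was called, with 7 and 2 at an unadjusted p under 0.05 (limma). Choroid plexus sums were 57.6 to 1281 TPM in KA_L and 139 to 39175 TPM in CTRL_L. The part of these markers in the result was not tested.

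KA_H was set against KA_L to ask what differed between the letters after KA. H2-Aa and Cd74 rose. H2-Aa averaged 548 ± 345 TPM in KA_H and 0.107 ± 0.0208 TPM in KA_L (log2 fold change 8.64, SE 1.02, adjusted p = 0.000937, limma; higher in 3 of 3 libraries). This size too depends on the pseudocount, with 11.06 at 0.1 and 6.45 at 5. Cd74 averaged 896 ± 683 TPM in KA_H and 38.2 ± 19.9 TPM in KA_L (log2 fold change 4.20, SE 0.93, adjusted p = 0.0366, limma; n = 3 each). These were 2 of 6 class II genes called higher and 0 lower, where 1.23% of all entries were called higher and 0.251% lower. KA_H lay above KA_L without overlap for H2-Aa, H2-Ab1, H2-Eb1 and Cd74, 4 of 6 genes against 10.5% of all entries. H2-Ab1 differed by 4.26 (SE 1.65, adjusted p = 0.236, limma). H2-Eb1 was tested and not called (adjusted p = 0.153, limma), and its fold change is not given because KA_L was listed at 0. Among the 5 class II genes with a level in KA_L the median log2 fold change was 4.20, against 0.11 over all entries. The Cd74 call was lost without KA_H replicate 1 (adjusted p = 0.141), KA_H replicate 3 (0.149), KA_L replicate 1 (0.0716), KA_L replicate 2 (0.0804) or KA_L replicate 3 (0.0874), and over its 16 alternatives the adjusted p ran from 0.0120 to 0.157 (limma). When the 6 libraries were fitted alone neither passed, with adjusted p = 0.0510 for H2-Aa (0.000194 to 0.0510 over 16 alternatives) and 0.141 for Cd74, and without a filter on low values Cd74 had adjusted p = 0.157 (limma).

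KA_H was also set against CTRL_L, although the letters differ. None of the 6 class II genes passed by limma, 0 had an unadjusted p under 0.05, and 0 were free of overlap, where 0.314% of all entries were called higher and 0.0628% lower, and 7.74% lay higher and 6.63% lower without overlap. The count was 0 under each of 16 alternatives. H2-Ab1 averaged 249.7 ± 200.2 TPM in KA_H and 151 ± 232 TPM in CTRL_L (n = 3 each), a log2 difference of 2.91 (SE 1.65, adjusted p = 0.580, limma). For Cd74 the difference was 1.75 (SE 0.93, adjusted p = 0.541, limma) and for H2-Aa 1.68. CTRL_L replicate 3, at 2809 TPM summed over the 7 genes, lay within the range of KA_H (556 to 3241 TPM). The sign turned for H2-DMa without KA_H replicate 1 (-0.35) or CTRL_L replicate 2 (-0.13), and for H2-DMb1 without CTRL_L replicate 2 (-0.74), against 0.10 and 1.51 with all libraries. These 3 comparisons share libraries, each of KA_H, KA_L and CTRL_L entering 2 of them.

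The APOE condition was compared with KA alone, first within L. H2-Aa rose, with 121 ± 144 TPM in APOE_L and 0.107 ± 0.0208 TPM in KA_L (n = 3 each; log2 fold change 6.05, SE 1.02, adjusted p = 0.0468, limma; higher in 3 of 3 libraries). It was 1 of 6 class II genes called higher, with 0 lower, where 0.0343% of all entries were called higher and 0.0114% lower. APOE_L lay above KA_L without overlap for H2-Aa, H2-Eb1 and Cd74, 3 of 6 genes against 3.57% of all entries, but for H2-Eb1 1 APOE_L library stood at 0.03 TPM. Cd74 averaged 201 ± 172 TPM in APOE_L and 38.2 ± 19.9 TPM in KA_L, a log2 difference of 2.18 (SE 0.93, adjusted p = 0.588, limma). The H2-Aa call was lost without APOE_L replicate 2 (adjusted p = 0.0745), APOE_L replicate 3 (0.0791) or KA_L replicate 1 (0.0651), with a pseudocount of 5 (log2 fold change 3.95, adjusted p = 0.238), without a filter (0.145), with quantile normalization (0.0622) and when the 6 libraries were fitted alone (0.801). Over the 16 alternatives its adjusted p ran from 0.00399 to 0.801 (limma).

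Within H, all 3 APOE_H libraries lay above all 3 KA_H libraries for 5 of the 6 class II genes, H2-DMa being the exception, where 14.6% of all entries lay higher without overlap. None passed the threshold by limma, where 0.36% of all entries were called higher and 0.171% lower, and 1 (Cd74) had an unadjusted p under 0.05. The count was 0 under each of 16 alternatives. Cd74 averaged 3695 ± 759 TPM in APOE_H and 896 ± 683 TPM in KA_H (n = 3 each; log2 fold change 2.48, SE 0.93, adjusted p = 0.427, limma). H2-Ab1 averaged 1518 ± 472 TPM in APOE_H and 249.7 ± 200.2 TPM in KA_H (log2 fold change 2.97, SE 1.65, adjusted p = 0.669, limma). H2-Eb1 averaged 489.6 ± 134 TPM in APOE_H and 73.0 ± 56.7 TPM in KA_H (log2 fold change 3.06, SE 1.90; adjusted p = 0.722 in limma). The fit takes 1 spread from all 5 groups, and a fit of APOE_H and KA_H alone called none of the 6 genes either. Over 16 alternatives the adjusted p of H2-Eb1 ran from 0.167 to 0.982 (limma). The median log2 fold change of the 6 genes was 2.13, against 0.25 over all entries.

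APOE_H was then set against APOE_L, to compare the letters in the APOE condition. Cd74 and H2-Aa rose. Cd74 averaged 3695 ± 759 TPM in APOE_H and 201 ± 172 TPM in APOE_L (n = 3 each). The log2 fold change was 4.50 (SE 0.93; higher in 3 of 3 libraries) with an adjusted p of 0.0105 in limma. H2-Aa averaged 1054 ± 115 TPM in APOE_H and 121 ± 144 TPM in APOE_L, a log2 fold change of 3.84 (SE 1.02, n = 3 each) with an adjusted p of 0.0351 in limma. Here 2 of 6 class II genes were called higher and 0 lower, where 4.7% of all entries were called higher and 1.45% lower. For 5 of the 6 genes, again all but H2-DMa, APOE_H lay above APOE_L without overlap, against 20.1% of all entries. H2-Ab1 and H2-Eb1 had larger differences but larger errors, with log2 fold changes of 5.25 (SE 1.65, adjusted p = 0.0696, limma) and 6.12 (SE 1.90, adjusted p = 0.0673, limma). Both passed with a pseudocount of 5 (adjusted p = 0.0207 and 0.0436), and H2-Ab1 also when the 6 libraries were fitted alone (0.00622) and H2-Eb1 without APOE_L replicate 3 (0.0456). The H2-Aa call was lost without each APOE_H replicate (adjusted p = 0.0981, 0.0829 and 0.118 for replicates 1 to 3) and without APOE_L replicate 1 (0.131) or 2 (0.102), without a filter (0.125) and in the 6 libraries alone (0.0519), within a range of 0.0227 to 0.131 over 16 alternatives. The Cd74 call was lost without a filter only (adjusted p = 0.0635, limma; 0.00534 to 0.0635 over 16 alternatives). Of the 4 calls of H2-Aa over these comparisons, 3 share the KA_L libraries, in which H2-Aa was at 0.09 to 0.13 TPM.

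**Figure D2:**
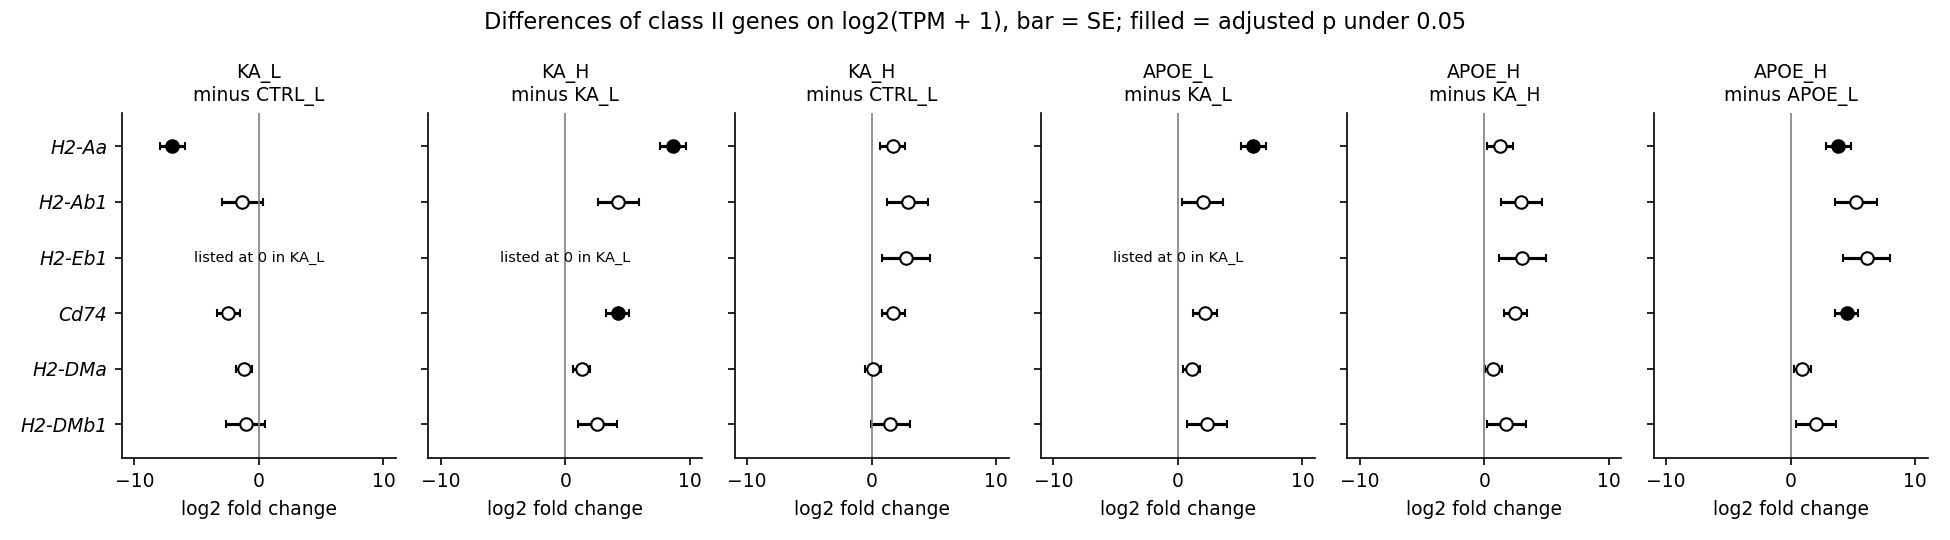
Log2 fold change of the 6 tested class II genes in the 6 pairwise comparisons (horizontal axis, log2(TPM + 1) scale, first-named group minus second; bars are the SE from limma, filled points have an adjusted p under 0.05). H2-Aa is filled in 4 comparisons and Cd74 in 2, and H2-Eb1 has no point where KA_L was listed at 0.

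Whether the difference between H and L itself differed between the APOE condition and KA was tested as an interaction. None of 6 class II genes passed by limma, where 0% of all entries were called higher and 0.0457% lower, and 1 (H2-Aa) had an unadjusted p under 0.05. For H2-Aa the difference between the differences was -4.80 (SE 1.45, adjusted p = 0.383, limma; 0.125 to 0.657 over 22 alternatives), from 3.84 in the APOE condition and 8.64 after KA alone. A p that misses the threshold does not show that the letters acted alike in both.

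Within a library, the 2 chains of the I-A molecule did not keep 1 ratio. The level of H2-Aa over that of H2-Ab1 was 0.505, 0.918 and 0.789 in APOE_H, 0.834, 1.07 and 7.83 in APOE_L, 1.50, 2.51 and 3.51 in KA_H, and 3.42 and 1.51 in CTRL_L replicates 1 and 3. In KA_L replicates 1 and 3 it was 0.00246 and 0.00598. APOE_H thus held less H2-Aa than H2-Ab1 in each library and KA_H more in each. In KA_L, H2-Aa was listed at 0.09 to 0.13 TPM, where an estimate may have failed. Cd74 over H2-Aa was 3.05 to 3.77 in APOE_H, 1.39 to 4.62 in APOE_L and 1.19 to 2.25 in KA_H, while it was 207 to 584 in KA_L and 1.11 to 1.63 in CTRL_L. Across the 15 libraries the Pearson correlation on the log2(TPM + 1) scale was 0.94 for H2-Eb1 with Cd74, 0.91 for H2-Ab1 with Cd74, 0.90 for H2-Aa with Cd74 and 0.50 for H2-DMa with H2-DMb1. These describe libraries that share group and composition and carry no p.

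**Figure D3:**
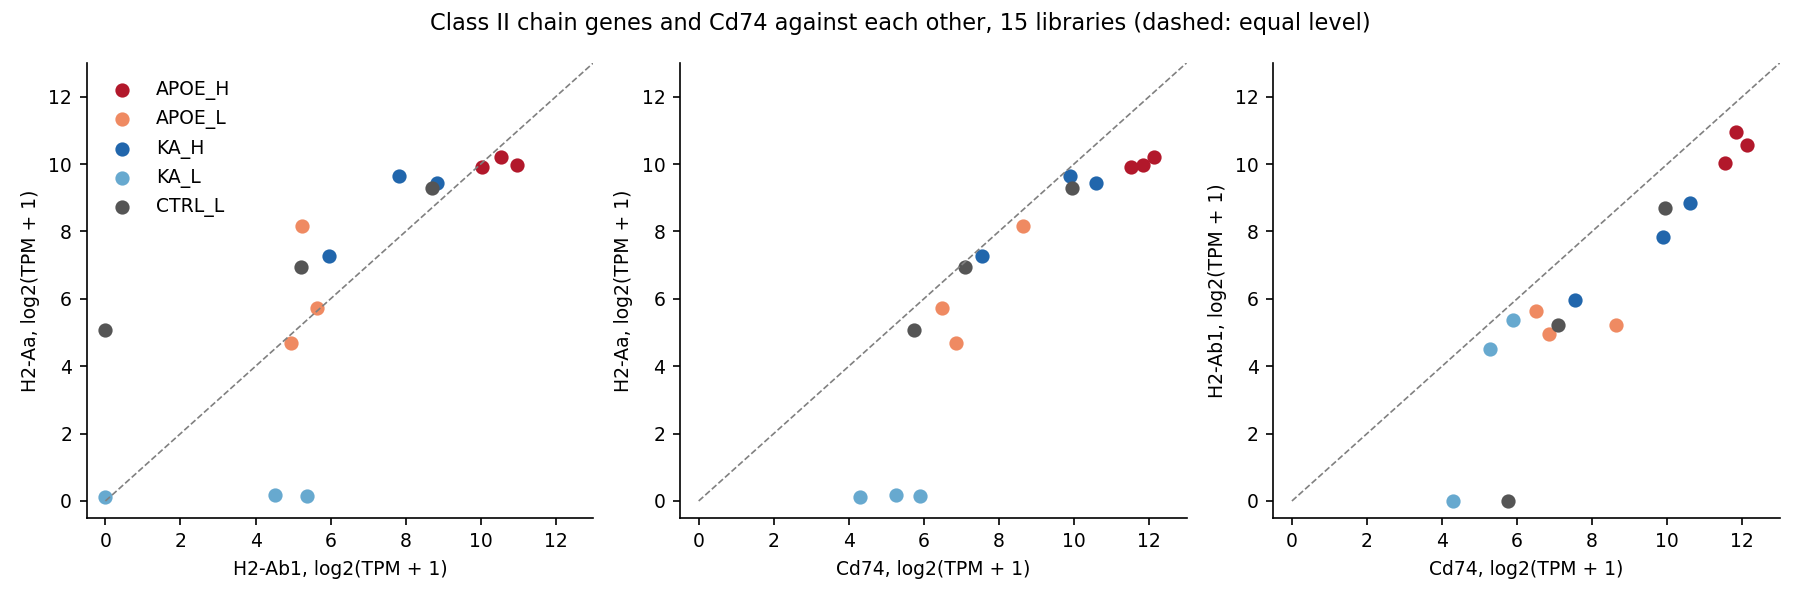
Levels of H2-Aa, H2-Ab1 and Cd74 against each other in 15 libraries, each axis log2(TPM + 1), with the line of equal level dashed; colours are groups. The 3 KA_L libraries leave the trend where H2-Aa is on the vertical axis, at 0.09 to 0.13 TPM with Cd74 at 18.6 to 58.4 TPM.

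Libraries of a group also moved together over several class II genes. KA_H replicate 2 was the lowest of KA_H for 6 of the 6 tested genes, and CTRL_L replicate 2 the lowest of CTRL_L for 6 of 6. CTRL_L replicate 3 was the highest of its group for 4 of 6, and KA_H replicate 1 for 5 of 6. In APOE_H no library was highest for more than 3. The summed level of the 7 genes was 5926 to 8226 TPM in APOE_H, 432 to 896 TPM in APOE_L, 556 to 3241 TPM in KA_H, 109 to 204 TPM in KA_L and 202 to 2809 TPM in CTRL_L.

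Of the 5 other class II genes 3 passed the filter. H2-Oa, which encodes a chain of the H2-DM inhibitor H2-O, rose to 28.3, 70.9 and 57.8 TPM in APOE_H, against 0.1, 0 and 0.78 TPM in APOE_L (a log2 difference of 5.32 with SE 0.91; adjusted p = 0.00486, limma; n = 3 each). It was at 28.3 to 91.9 TPM in KA_H, 12.1 to 64.5 TPM in KA_L and 37.8 to 75.5 TPM in CTRL_L, so that the lowest group was APOE_L and not KA_L. This was the only call among the 3 in the 7 comparisons, 1 of 3 where 4.7% of all entries were called higher in APOE_H against APOE_L. H2-Ob, its partner chain gene, and H2-DMb2 were tested and not called, and H2-Eb2 was listed at 0 in 13 libraries. The H2-Oa call held without each library and under the 10 other settings (adjusted p 0.0028 to 0.0246, limma), with a log2 difference of 7.55 at a pseudocount of 0.1 and 3.36 at 5.

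Lysosomal proteases cut the invariant chain and make peptides. Cathepsin S (Ctss), the main protease of invariant chain degradation in antigen-presenting cells, ran from 2967 to 10970.3 TPM and was called in no comparison. Of 8 processing genes (Ctss, Ctsl, Ctsb, Ctsd, Ctsz, Lgmn, Ifi30 and the cysteine protease inhibitor gene Cst3), 4 rose and 0 fell in APOE_H against APOE_L, where 4.7% of all entries were called higher and 1.45% lower, with a median log2 fold change of 1.46 against 0.54 over all entries. Ctsd, encoding an aspartic protease, reached 24881, 10229.9 and 26090.1 TPM in APOE_H, against 2057, 1524 and 2321 TPM in APOE_L, a log2 fold change of 3.28 (SE 0.39) with an adjusted p of 0.000417 in limma. Ctsz rose by 3.20 (adjusted p = 0.00616), Ctsb by 3.03 (adjusted p = 0.00327) and Lgmn, asparaginyl endopeptidase, by 1.67 (adjusted p = 0.0286, limma). The Lgmn call was lost without each of the 6 libraries (adjusted p 0.0542 to 0.119) and without a filter (0.113), and the other 3 held without each library and under the 10 other settings. Against KA_H, APOE_H was higher in Ctsd (log2 fold change 2.19, SE 0.39, adjusted p = 0.0167, limma), 1 of 8 where 0.36% of all entries were called higher. This call was lost without APOE_H replicate 1 or 3 or KA_H replicate 2 (adjusted p up to 0.0883) and under 2 of 10 other settings, no filter and a fit of the 6 libraries alone (up to 0.244). KA_H was higher than KA_L in Ctsb (log2 fold change 2.05, SE 0.49, adjusted p = 0.0463, limma), 1 of 8 where 1.23% of all entries were called higher. This call was lost without any library but KA_L replicate 2 (adjusted p up to 0.160) and under 5 of 10 other settings (up to 0.204). In KA_L against CTRL_L, KA_H against CTRL_L, APOE_L against KA_L and the interaction, 0 of 8 were called.

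Of 7 promoter factors (Rfx5, Rfxap, Rfxank, Nfya, Nfyb, Nfyc and Creb1) all passed the filter and none was called by limma in the 7 comparisons, with 0 to 1 at an unadjusted p under 0.05 in each. Rfx5, a subunit of the X box factor, was listed at 0 in 6 libraries and reached 35.0 TPM at most. Ifng, encoding interferon-gamma, which induces Ciita, was listed at 0 in all 15 libraries. The other 8 interferon-gamma signalling genes passed the filter with no call (0 to 1 at an unadjusted p under 0.05), among them the receptor gene Ifngr1 at 164 to 854 TPM. Of 8 genes of class II turnover and co-stimulation none was called (0 to 2 at an unadjusted p under 0.05). Cd86, a ligand of CD28 on T cells, ran from 126 to 323 TPM. March1, whose product ubiquitinates class II molecules, ran from 17.4 to 146 TPM.

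**Figure D4:**
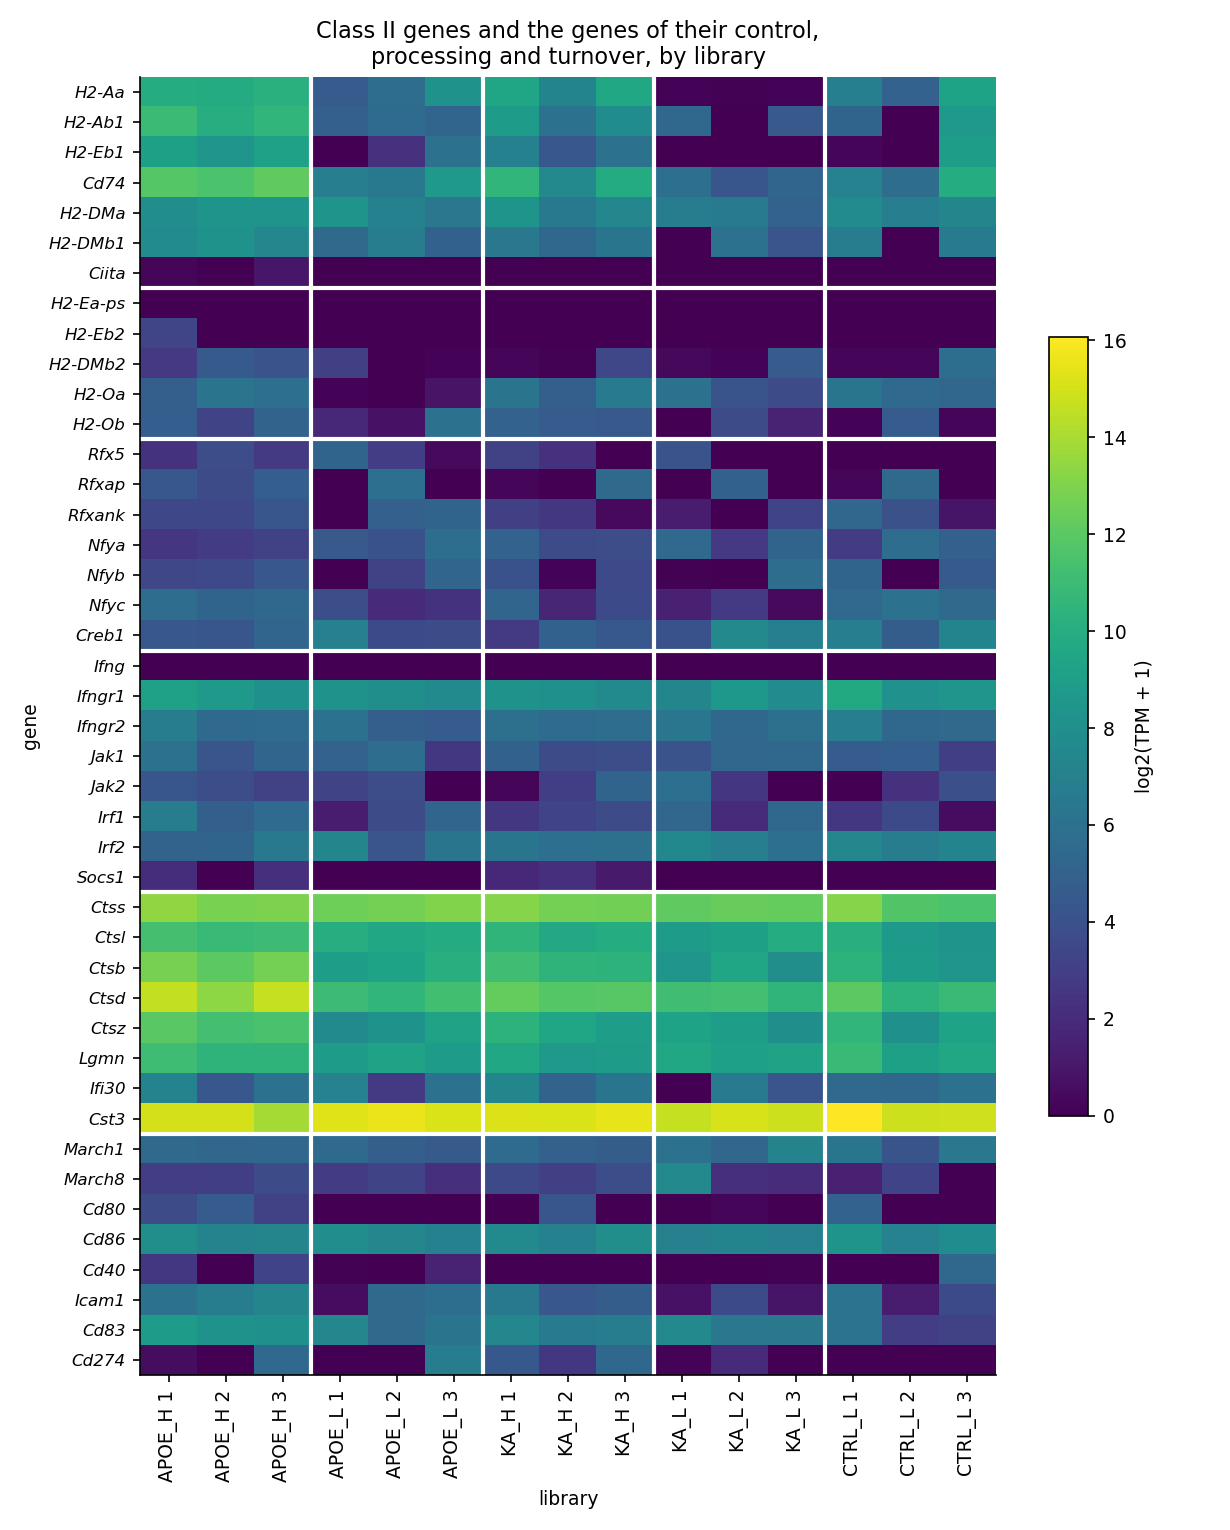
Level of the 7 class II genes (top block) and of the other class II, promoter factor, interferon-gamma, processing, and turnover and co-stimulation genes (lower blocks, genes as labelled) in each library, colour showing log2(TPM + 1). The class II chains and Cd74 are bright in all APOE_H libraries, Ctss and Cst3 are bright in every library, and Ciita, H2-Ea-ps and Ifng are dark throughout.

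Markers of cell types that carry class II, or that moved between the groups, are given beside these results, and their part in them was not tested. The 10 microglia markers summed to 15163 to 22881 TPM in APOE_H, 9085 to 11268 TPM in APOE_L, 9360 to 10589 TPM in KA_H, 6227 to 9786 TPM in KA_L and 7184 to 27207 TPM in CTRL_L. As a percentage of that sum, the 7 class II genes came to 33.5 to 54.3% in APOE_H, 3.84 to 8.93% in APOE_L, 5.94 to 30.8% in KA_H, 1.75 to 2.69% in KA_L and 2.29 to 27.3% in CTRL_L. APOE_H thus lay above every other library on this scale as well. Of the microglia markers, C1qa passed in APOE_H against APOE_L (log2 fold change 1.67, adjusted p = 0.0406, limma) and Tmem119 in APOE_H against KA_H (2.78, adjusted p = 0.0273, limma). Each was 1 of 10, where 4.7% and 0.36% of all entries were called higher. Each call was lost without 5 or more of 6 libraries in turn (adjusted p up to 0.152), and under 3 and 5 of 10 other settings (up to 0.201 and 0.155). In these 2 comparisons 5 and 6 of 10 markers had an unadjusted p under 0.05 (limma), as did 3834 and 1510 of all 17505 entries. Their median log2 fold changes were 0.88 and 1.00, against 0.54 and 0.25 over all entries.

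The summed border macrophage markers overlapped between all groups, at 216 to 865 TPM in APOE_H, 365 to 704 TPM in APOE_L, 402 to 660.4 TPM in KA_H, 197 to 646 TPM in KA_L and 299.7 to 543 TPM in CTRL_L. Stab1, at 79.4 to 560.5 TPM, weighed heavily in most of these sums, and other markers ran differently. KA_H lay above KA_L without overlap for Pf4 (70.5 to 436 TPM in KA_H and 0 to 5.82 TPM in KA_L), Ms4a7 (9.95 to 96.7 TPM in KA_H and 0 to 0.16 TPM in KA_L) and Mrc1 (4.35 to 49.9 TPM in KA_H and 0.38 to 3.79 TPM in KA_L). Of all entries, 10.5% lay higher without overlap. In that comparison 4 of the 9 markers tested had an unadjusted p under 0.05 (limma), as did 2595 of all 17505 entries. Of the 9 markers 7 had a positive log2 fold change, and the median was 1.23 against 0.11 over all entries. In APOE_H replicates 1 to 3 the border macrophage sums were 456, 865 and 216 TPM, beside class II sums of 7670, 5926 and 8226 TPM. At least 1 of the 10 markers was listed at 0 throughout each group, 3 of them in CTRL_L. Single markers passed in KA_H against KA_L (Pf4, log2 fold change 6.56, adjusted p = 0.0218) and against CTRL_L (Pf4, 6.18, adjusted p = 0.0461) and in APOE_H against APOE_L (Cbr2, 5.53, adjusted p = 0.0172, limma). Each was 1 of 9 tested, where 1.23%, 0.314% and 4.7% of all entries were called higher in these comparisons. Each call was lost without 4 or more libraries in turn (adjusted p up to 0.202). The Pf4 calls were also lost under 2 of 10 other settings against KA_L (adjusted p up to 0.108) and under 5 of 10 against CTRL_L (up to 0.345). The dendritic cell markers summed to less in APOE_H (137 to 182 TPM) than in APOE_L (404 to 597 TPM), KA_H (229.9 to 504 TPM) and KA_L (337 to 757 TPM), and to 175 to 396 TPM in CTRL_L. Flt3 and Zbtb46 made up much of most of these sums, and the median log2 fold change of the 7 markers tested in APOE_H against APOE_L was 0.72, with 4 of 7 positive. Batf3 stood at 8.81 to 20.8 TPM in APOE_H and 0 to 11.7 TPM in APOE_L, and Cd209a at 0 to 81.0 TPM in APOE_H and 0 to 0.04 TPM in APOE_L, neither called. Among the markers Flt3 fell by 2.36 in APOE_H against APOE_L (adjusted p = 0.0147, limma). Clec10a, listed at 0 in the APOE_L libraries, rose to 5.31 to 20.8 TPM in APOE_H (adjusted p = 0.00957, and 0.0590 and not called without a filter, limma). Of the 7 tested, 1 was thus called lower and 1 higher, where 1.45% of all entries were called lower and 4.7% higher. In each group, 2 or 3 of the 10 were listed at 0 throughout.

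B cell markers had a sum of 193 to 463 TPM in APOE_H, 113 to 277 TPM in APOE_L, 99.9 to 150.1 TPM in KA_H, 110 to 225 TPM in KA_L and 119.9 to 257 TPM in CTRL_L. Ighm, an immunoglobulin heavy chain gene, made up most of it, at 85.4 to 437 TPM, while Ms4a1, Pax5 and Cd79a did not reach 1 TPM in any library. The 8 T cell markers summed to 0 to 64.6 TPM and the 6 monocyte markers to 3.7 to 238 TPM over the 15 libraries, with overlap between all groups for monocytes and no call in either list (0 to 1 at an unadjusted p under 0.05, limma). Neutrophil markers summed to 0, 1164 and 0 TPM in APOE_H replicates 1 to 3, beside class II sums of 7670, 5926 and 8226 TPM. In KA_H the neutrophil markers summed to 326 to 1291 TPM. S100a8 was listed at 0 in every KA_L and CTRL_L library and stood at 129 to 873 TPM in KA_H (adjusted p = 0.0256 against KA_L and 0.0453 against CTRL_L, limma); S100a9 passed against KA_L (adjusted p = 0.0296, limma). Against KA_L 2 of 5 neutrophil markers tested were called higher, where 1.23% of all entries were, and against CTRL_L 1 of 5, where 0.314% were. These calls were lost without 5 or more of 6 libraries in turn (adjusted p up to 0.111, limma). They were also lost under 2 of 10 other settings against KA_L (up to 0.104) and, for S100a8, 4 of 10 against CTRL_L (up to 0.194). In both comparisons these settings included the fit without a filter. The 5 markers tested reached 1 TPM in 3 or 4 libraries, all of them KA_H libraries or APOE_H replicate 2. They passed the filter through these libraries alone, so the shares called are a description only.

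Choroid plexus markers separated the letters after KA. They summed to 38370.4 to 58842 TPM in APOE_H, against 126 to 297 TPM in APOE_L, and to 33167 to 41209 TPM in KA_H, against 57.6 to 1281 TPM in KA_L. Of the 10 markers 9 rose in APOE_H against APOE_L, where 4.7% of all entries were called higher. Of these, 5 remained without APOE_H replicate 3, 7 without each other library and 4 without a filter. In KA_H against KA_L 5 rose, where 1.23% of all entries were called higher, of which 0 remained without KA_H replicate 3, 4 without KA_L replicate 2 and 1 without each other library. Without a filter 0 of these 5 remained, and 1 remained when the 6 libraries were fitted alone. For CTRL_L replicates 1 to 3, choroid plexus sums were 139, 39175 and 23868 TPM, and class II sums were 622, 202 and 2809 TPM. For KA_H replicates 1 to 3, choroid plexus sums were 33167, 36765 and 41209 TPM, and class II sums were 3241, 556 and 2294 TPM. Within KA alone, and likewise within the APOE condition, the H libraries lay above the L libraries on both sums. In each of these conditions the letter and the choroid plexus content therefore cannot be told apart. CTRL_L, an L group, held both low and high choroid plexus sums, and no untreated H group was analysed. The part of the letter and of the choroid plexus content in the class II results was not tested.

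**Figure D5:**
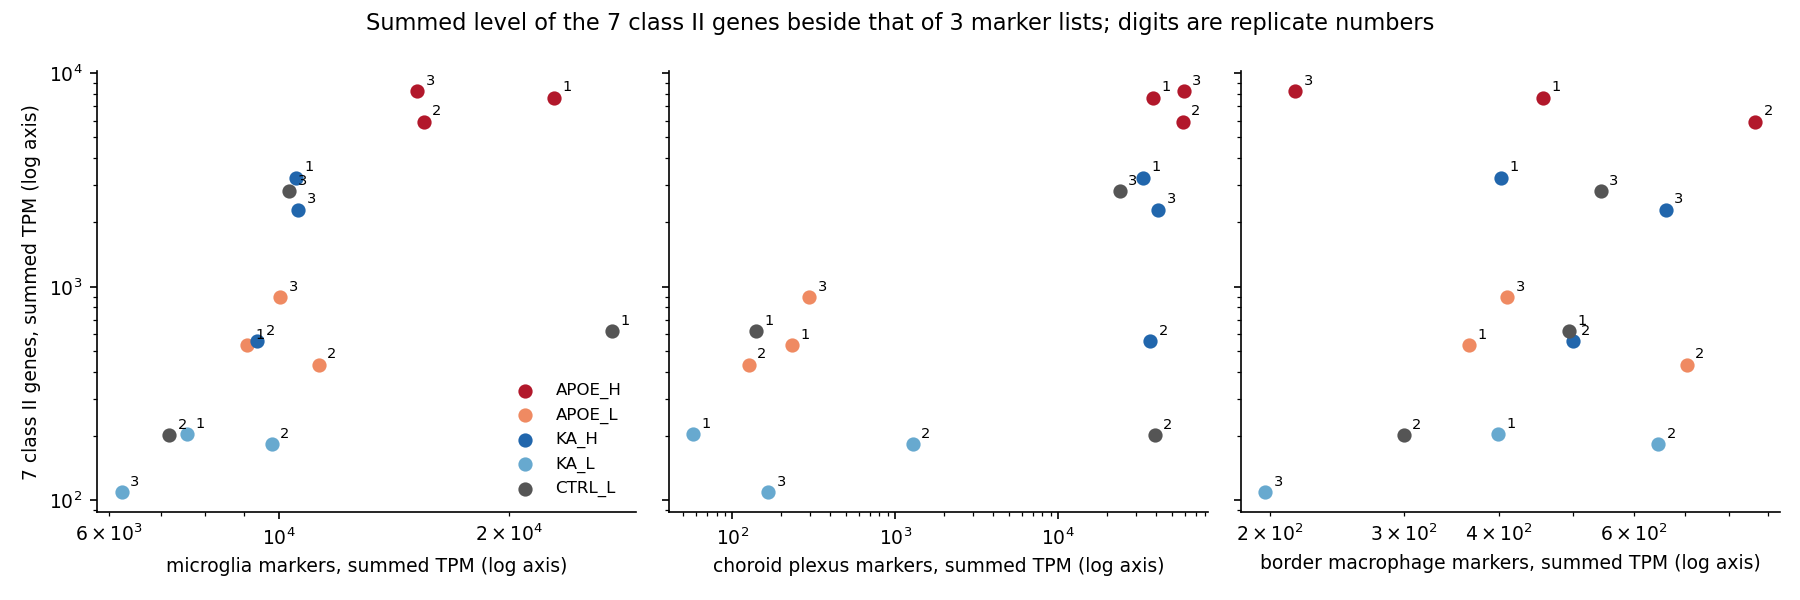
Summed level of the 7 class II genes (vertical axis, TPM, log scale) against the summed level of microglia, choroid plexus and border macrophage markers (horizontal axes, TPM, log scale) in 15 libraries, labelled by replicate number. APOE_H lies at the top in each panel, and on the choroid plexus axis the APOE_H and KA_H libraries lie above those of APOE_L and KA_L.

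Genes with the most similar course were found by the Pearson correlation across the 15 libraries with the mean log2(TPM + 1) of the 6 tested class II genes, among 10696 named genes with a mean of at least 5 TPM. The 5 highest were B230307C23Rik (r = 0.91), Scpep1 (0.91), Uck1 (0.90), Ddx20 (0.89) and Necap2 (0.89). Scpep1, which encodes a serine carboxypeptidase, stood at 145 to 182 TPM in APOE_H, 4.95 to 25.7 TPM in APOE_L, 29.2 to 48.7 TPM in KA_H, 0.39 to 3.05 TPM in KA_L and 4.46 to 68.8 TPM in CTRL_L. All 5 were picked for this likeness, and their values are a description.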

How the data were processed

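RNA was extracted with Trizol and libraries were made with a TruSeq kit, per the labels' protocols. The values deposited by the authors are TPM for 65964 entries in 15 libraries. STAR and the build GRCh38, a human assembly, are named per the submitters' processing notes, although the identifiers are mouse Ensembl genes (55416) and assembled loci (10548). The quantification tool, annotation and strand setting are not given in the sources used here. Symbols were matched by Ensembl identifier for 52083 entries. No pair of libraries was identical.

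Values were compared as log2(TPM + 1) in limma 3.58.1 (R 4.3.3), with a mean per group over all 15 libraries, a mean-variance trend, 10 residual degrees of freedom and Benjamini-Hochberg adjustment over 17505 entries (1 TPM or above in 3 libraries; threshold 0.05). The pseudocount understates the change of low genes. The p-values rest on the spread between libraries of a group, which may be technical, and TPM give no counting interval. The genes, lists and tests were chosen with earlier results of these data known. All 7 class II genes were named, with called genes of the other lists and the 5 genes most like them. Called choroid plexus markers were given as counts only, and some genes without a call were named as examples. Single values of 2 genes of these lists are not reported here. The fit was tested on simulated data. Alternatives changed the pseudocount, filter, scaling, fit or libraries used.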

Additional observations from a re-analysis of the deposited data

How the results depend on the processing

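Counts of called class II genes moved with the settings. With only the groups compared in the fit, the count was 0 in KA_L against CTRL_L (1 in the main analysis), 0 in KA_H against KA_L (2) and 0 in APOE_L against KA_L (1). Without a filter it was 1 in KA_H against KA_L, 0 in APOE_L against KA_L and 0 in APOE_H against APOE_L (2). APOE_L against KA_L also gave 0 with a pseudocount of 5 and with quantile normalization, and APOE_H against APOE_L gave 4 with a pseudocount of 5. Leaving out each library in turn gave 1 to 1 in KA_L against CTRL_L, 1 to 2 in KA_H against KA_L, 0 to 1 in APOE_L against KA_L, 1 to 3 in APOE_H against APOE_L and 0 in the other comparisons. The log2 fold change then ran from -3.66 to 0.69 for H2-Ab1 and from -3.33 to 0.64 for H2-DMb1 in KA_L against CTRL_L, and from -0.35 to 0.56 for H2-DMa and from -0.74 to 2.66 for H2-DMb1 in KA_H against CTRL_L, and no called value turned. The cause of these changes was not tested.

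The replicate block gave 4 in APOE_H against APOE_L, adding H2-Ab1 (adjusted p = 0.0361, limma; 0.00622 to 0.248 over 16 alternatives) and H2-Eb1 (0.0468; 0.0436 to 0.221), and it left the count of class II calls in the other comparisons as it was. Deviations from the group means correlated at -0.0263 to 0.0365 between libraries of the same number, and no pair exceeded 0.1. Between libraries of different numbers they correlated at -0.0459 to 0.0222. With 3 libraries per group this check cannot exclude shared animals or batches, and the labels give no such link.

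Over all entries, the number called was 100 in KA_L against CTRL_L (0 to 104 over the other settings, 66 to 232 without each library in turn), 260 in KA_H against KA_L (3 to 393, 38 to 300), 66 in KA_H against CTRL_L (3 to 136, 17 to 52), 8 in APOE_L against KA_L (1 to 13, 8 to 68), 93 in APOE_H against KA_H (0 to 98, 50 to 120), 1076 in APOE_H against APOE_L (538 to 1562, 429 to 766) and 8 in the interaction (0 to 24, 0 to 22). Upper-quartile scaling moved the higher and lower calls of KA_L against CTRL_L to 26 and 36 (30 and 70 in the main analysis) and those of APOE_H against KA_H to 52 and 46 (63 and 30). Quantile normalization moved the calls of APOE_H against KA_H to 10 and 15 and those of APOE_H against APOE_L to 568 and 419 (822 and 254). These scalings shifted the median log2 fold change of all entries by -0.59 to 0.37, and no class II gene changed direction under either.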
